A study of Mus musculus with 6 samples.

Results

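The serpins are a superfamily of protease inhibitors, and 62 genes whose names begin with Serpin are described here, out of the 21959 genes of the count table. They were grouped with Slpi and Wfdc2, secreted inhibitors of another fold, which gave 64 members. Members were chosen by name alone, and pseudogene names ending in -ps were left out. RNA was sequenced from a mouse gastric adenocarcinoma cell line, labelled MPC and called MTC in the study, and from its paclitaxel (PTX)-resistant derivative, labelled MPC-PTX and called MTC-R, with 3 libraries of each line. Both lines carry the labelled genotype CDH1-/-;Trp53-/-, a knockout of the genes of E-cadherin and p53. Both were grown in RPMI 1640 medium with serum. They descend from gastric organoids of a C57BL/6 J mouse with floxed Trp53 and Cdh1 alleles and a Mist1-CreER transgene, whose cells were passed through a subcutaneous tumour in a nude mouse. MPC libraries are labelled as control, while MPC-PTX cells received PTX, a drug that stabilizes microtubules, for over 30 cycles. Each line went through monoclonal selection, so that MPC against MPC-PTX compares a pair of clonal cell populations. The labels do not say whether the 3 replicates of a line were separate cultures, and the p-values therefore measure only the spread between these libraries, which may be technical.

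A serpin holds out a flexible reactive centre loop as bait. When a target protease cuts this loop, the serpin changes shape and traps the enzyme in a covalent complex, so that each inhibitor molecule is used once. Secreted serpins control blood clotting, fibrinolysis, complement and leukocyte proteases, whereas most clade B serpins stay inside the cell and guard it against granzymes and lysosomal proteases. Slpi and Wfdc2 instead belong to the whey acidic protein (WAP) family, small secreted proteins of epithelial surfaces, and Slpi inhibits leukocyte elastase and cathepsin G.

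The libraries held 16574580 to 23148182 counts and detected 13897 to 14295 genes. Values are given as CPM, each library's counts scaled to a common library size with TMM factors. Cdh1 had 2555 to 2812 counts in MPC and 2217 to 3068 in MPC-PTX, and Trp53 had 63 to 120 and 111 to 142. Counts per gene do not show whether the deleted exons were read. Over all tested genes MPC replicate 3 stood apart, as the chi-square per gene between libraries was 60 and 31.9 for its pairs and 14.7 for the other MPC pair, against 1.83 to 3.33 in MPC-PTX. Over the tested members it was MPC replicate 1, with an SD of the log2 ratios between libraries of 0.434 and 0.508 for its pairs and 0.229 for the other MPC pair, against 0.223 to 0.273 in MPC-PTX. Simple epithelial markers were abundant in both lines (summed level 10300 to 11800 CPM in MPC and 6220 to 6370 in MPC-PTX for 19 genes), although Tff1, Tff2, Gkn2 and Pgc, which mark gastric pit and gland cells, had 0 counts throughout.

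Most of the family was silent or nearly so in both lines. Of the 64 members, 31 had 0 counts in all 6 libraries and 21 had at most 12 counts in any library, which left 12 with enough counts to test. A count of 0 allows up to 3 counts, or 0.128 to 0.178 CPM depending on the library, a limit that covers counting error only. None of the 24 clade A genes, most of which encode plasma serpins, could be tested. Serpina1a to Serpina1e, the mouse genes of alpha-1-antitrypsin, Serpina5 (protein C inhibitor) and Serpina6 (corticosteroid-binding globulin) were at 0 throughout, and 5 other clade A genes had at most 6 counts. Serpina1 and Serpina3 each form a group of related genes, whose shared sequence was not measured here. The treatment of reads with several matches is not stated, so that reads shared between such genes may be missing from these counts.

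Several serpins of other clades were as scarce. Serpinc1 (antithrombin) had 2 or 3 counts in every library and Serping1 (C1 inhibitor) had 1 to 4. Serpind1, Serpine2, Serpine3, Serpinf1 and Serpinf2 had at most 10 counts each. Serpinh1, which encodes the collagen chaperone HSP47 of the endoplasmic reticulum, had 3, 3 and 2 counts in MPC and 6, 5 and 2 in MPC-PTX, so that no difference was detectable at this depth (log2 fold change 0.58, standard error 0.67, with no filter on low counts). On chromosome 1 the squamous clade B genes Serpinb2, Serpinb3a to Serpinb3d, Serpinb12 and Serpinb13 were at 0 in all libraries. The remaining clade B genes outside the test had at most 12 counts, the highest being Serpinb1c with 7, 6 and 12 counts in MPC and 3, 3 and 0 in MPC-PTX (adjusted p = 0.0645, edgeR with no filter).

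**Figure D1:**
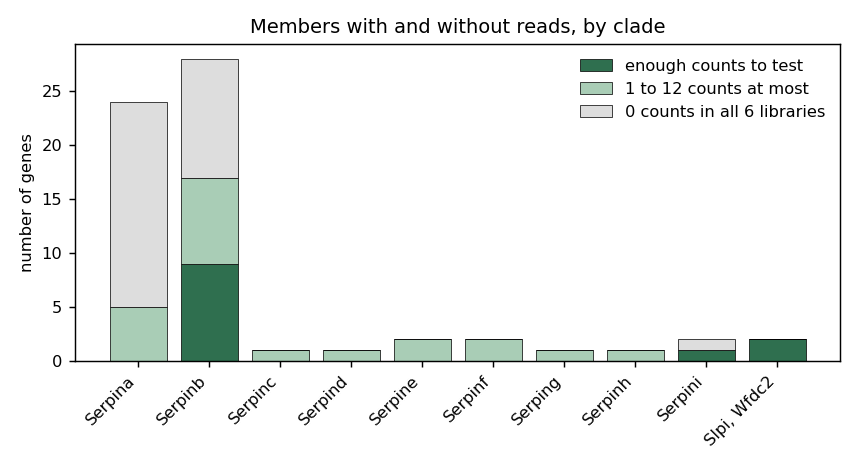
Number of genes (vertical axis) in each serpin clade and in the WAP pair, split into members with enough counts to test (dark green), members with 1 to 12 counts at most (light green) and members with 0 counts in all 6 libraries (grey). All 24 clade A genes lie outside the tested class, and 9 of 28 clade B genes lie inside it.

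The 12 tested members were Serpinb1a, Serpinb1b, Serpinb5, Serpinb6a, Serpinb6b, Serpinb8, Serpinb9, Serpinb9b, Serpinb11, Serpini1, Slpi and Wfdc2. Per kilobase of exon, with lengths from GENCODE M21, Wfdc2 was the most abundant at 1122 CPM in MPC and 1261 in MPC-PTX. Serpinb6b followed at 115.5 and 67.3 CPM per kilobase, then Serpinb9 at 89.3 and 35.8 and Serpinb6a at 67.6 and 48.3. Among these 12 genes Slpi took place 10 in MPC and place 6 in MPC-PTX. At the bottom were Serpinb11 and Serpini1, below 1 CPM per kilobase in both lines.

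**Figure D2:**
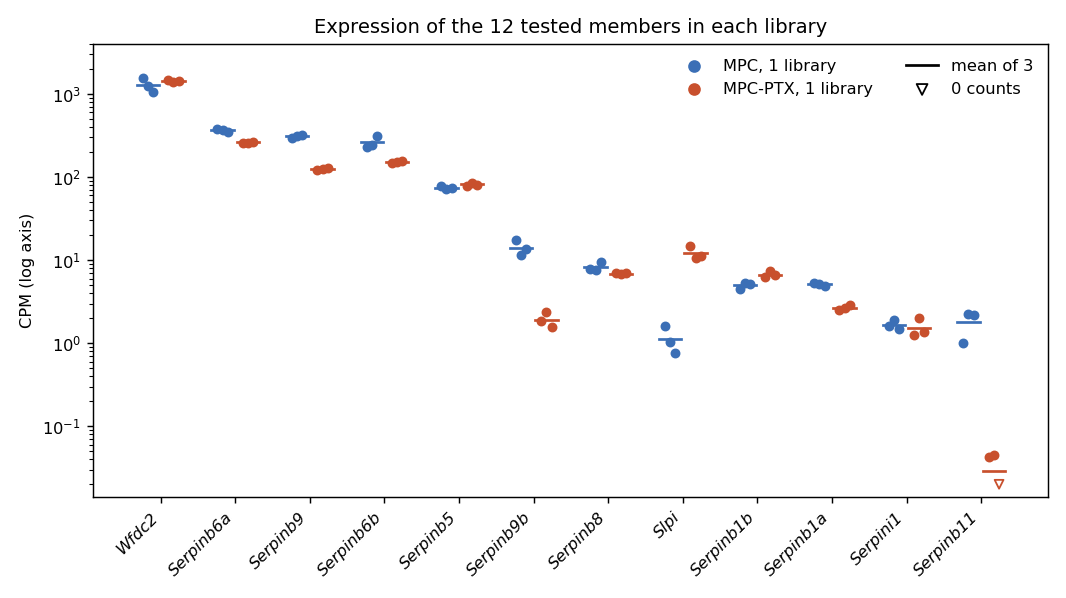
Level of each tested member in CPM (vertical axis, log scale), with 1 point per library (MPC blue, MPC-PTX red), bars for the mean of 3 libraries and open triangles for 0 counts. The lines overlap for Wfdc2, Serpinb5 and Serpini1 and separate fully for all other tested members, among them Serpinb9, Serpinb9b, Serpinb11 and Slpi.

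By the call used here, an adjusted p below 0.05 with an absolute log2 fold change above 1, Slpi was higher in MPC-PTX and Serpinb9, Serpinb9b and Serpinb11 were lower. Over all 11795 tested genes, 3.54% were called higher and 4.2% lower by the same limits, against 1 and 3 of the 12 members. Of these 3, Serpinb11 reached the count filter through its MPC libraries alone. Without the limit on fold change, 1 member was higher and 6 were lower, beside 14.1% and 15.6% of all tested genes. The median log2 fold change was -0.38 over the tested members and 0.04 over all tested genes. Groups did not overlap for 9 of 12 members, 2 above and 7 below, and for 46.9% of all tested genes. Less RNA per cell and fewer cells that express a gene cannot be told apart in bulk libraries.

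**Figure D3:**
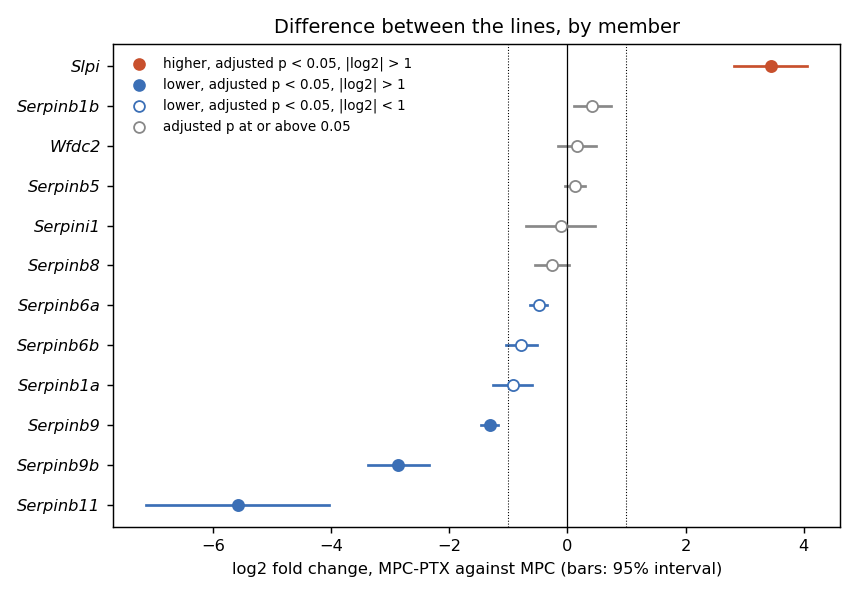
Log2 fold change of each tested member in MPC-PTX against MPC (horizontal axis) with its 95% interval from the edgeR fit; filled points passed both limits, open blue points passed the adjusted p alone, grey points passed neither, and dotted lines mark a log2 fold change of 1 in each direction. Slpi is the only member to the right of these lines, and Serpinb9, Serpinb9b and Serpinb11 lie to the left.

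Plasminogen activators are proteases that secreted serpins and neuroserpin hold in check, and 1 of the pair fell in MPC-PTX. Plau, which encodes urokinase, went from 138 ± 36.4 to 47.1 ± 3.07 CPM (SD, n = 3 each; log2 fold change -1.55, standard error 0.18, adjusted p = 0.00131, edgeR). Plat, the gene of tissue plasminogen activator, was at 29.98 ± 2.14 and 28.8 ± 0.283 CPM (95% interval of the log2 fold change -0.26 to 0.14), and the urokinase receptor gene Plaur was at 70.5 ± 12.9 and 63.75 ± 3 CPM (-0.45 to 0.16). Neither of these differences exceeded the spread between replicates. In the plasminogen activation list 10 of 19 genes were tested and 6 were lower with an adjusted p below 0.05, 3 of them beyond a log2 fold change of -1, and none was higher. Besides Plau these 3 were Hgfac, the activator protease of hepatocyte growth factor (log2 fold change -1.09), and Mst1r, a receptor tyrosine kinase (-4.04, and -5.08 without MPC-PTX replicate 3). Only Plau among them encodes a plasminogen activator. Mst1r had 88, 75 and 113 counts in MPC and 1, 5 and 11 in MPC-PTX. Plasminogen itself (Plg) had 0 counts in every library. Over all tested genes, 15.6% were lower by adjusted p and 4.2% were lower with both limits.

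Serpini1, the gene of neuroserpin, an inhibitor of tissue plasminogen activator, was rare. It had 30, 37 and 31 counts in MPC and 29, 44 and 23 in MPC-PTX, and the libraries overlapped. The log2 fold change was -0.11 with a 95% interval from -0.71 to 0.48. A change of this size is not detectable at such counts.

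The tested clade B serpins of chromosome 13 lie in 1 cluster, in the order Serpinb1a, Serpinb6b, Serpinb9, Serpinb9b, Serpinb1b and Serpinb6a. Of these 6 genes 5 fell and Serpinb1b did not. Serpinb9b and Serpinb9, which are next to each other, had the lowest values, with log2 fold changes of -0.93, -0.78, -1.32, -2.86, 0.42 and -0.49 in this order. The nearest tested genes outside the row were at 0.50 for Foxc1, -0.29 for Gmds and -0.01 for Wrnip1 on one side and at -0.40 for Nqo2, -0.25 for Ripk1 and -0.49 for Bphl on the other, so that the decrease of Serpinb6a was no larger than that of Bphl.

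Serpinb9 encodes the inhibitor of granzyme B, the protease that cytotoxic lymphocytes deliver into their targets. It was at 298.5, 314.2 and 323.2 CPM in MPC and 121.2, 124.3 and 130.2 CPM in MPC-PTX. The lines were well apart and the replicates close, so that a decrease by 1.32 on the log2 scale, 2.49-fold, was among the best resolved in the family (standard error 0.06, adjusted p = 2.22e-05, edgeR). Its neighbour and paralog Serpinb9b was at 17.3, 11.6 and 13.5 CPM in MPC and 1.84, 2.39 and 1.55 CPM in MPC-PTX. Its highest MPC-PTX value was far below its lowest MPC value. The log2 fold change was -2.86 (standard error 0.22, adjusted p = 0.000153, edgeR), or 7.25-fold lower.

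Reads of paralogs can be split between copies, and the overlap of their transcripts was therefore measured. Of all stretches of 50 bases in annotated transcripts of Serpinb9 and Serpinb9b, 0.378% and 0.478% occurred in a transcript of another gene. The share was 3.09% or less for each of the 12 tested members, and it was 0 for Serpinb5, Serpinb11, Slpi and Wfdc2. Exons of Serpinb6a overlap those of Nqo2, Ripk1 and 1110046J04Rik on the opposite strand, those of Serpinb9b overlap the predicted gene Gm36099 on the opposite strand, and those of Slpi hold Mir7678. Since the use of strand in counting is not stated, reads of the pairs on opposite strands cannot be told apart. Mir7678 lies on the same strand as Slpi, so that strand would not separate their reads.

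Serpinb6a and Serpinb6b are related to human SERPINB6, an intracellular inhibitor of cathepsin G and trypsin-like proteases. Serpinb6a was at 383.9, 365.9 and 347.5 CPM in MPC and 260.2, 259.7 and 263 CPM in MPC-PTX. This 1.40-fold decrease was small but larger than the spread in either line (log2 fold change -0.49, standard error 0.06, adjusted p = 0.00113, edgeR). The SD was 18.2 CPM in MPC and 1.74 CPM in MPC-PTX. Serpinb6b, at 232.3, 243.6 and 307.8 CPM in MPC, was at 146, 152.9 and 158 CPM in MPC-PTX. MPC replicate 3 held its highest value, and the decrease by 0.78 on the log2 scale had a standard error of 0.11 (adjusted p = 0.00226, edgeR).

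The Serpinb1 genes, relatives of the human inhibitor of neutrophil elastase, were both low, and only Serpinb1a passed the test. Serpinb1a was at 5.26, 5.16 and 4.85 CPM in MPC and 2.52, 2.62 and 2.91 CPM in MPC-PTX, a decrease by 0.93 on the log2 scale (standard error 0.14, adjusted p = 0.00286, edgeR). Leaving out MPC replicate 3 moved it to -1.02, past the limit of -1. Serpinb1b was at 4.46, 5.31 and 5.19 CPM in MPC and 6.24, 7.30 and 6.54 CPM in MPC-PTX. Every MPC-PTX library was above every MPC library, but the adjusted p of 0.0501 (edgeR) just missed the limit, and it ranged from 0.0406 to 0.192 over the alternatives.

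Serpinb5, Serpinb8 and Serpinb11 come from the clade B cluster on chromosome 1 and differed in abundance and response. Serpinb5 encodes maspin, a clade B protein that does not inhibit proteases and was described as a tumour suppressor of the mammary gland. It was at 79.1, 71.4 and 73.95 CPM in MPC and 79.0, 85.6 and 80.3 CPM in MPC-PTX. These values overlap, with a log2 fold change of 0.13 and a 95% interval from -0.04 to 0.30. Serpinb8, a furin inhibitor in vitro, was at 8.29 ± 0.944 and 6.90 ± 0.157 CPM (SD, n = 3 each). All its MPC-PTX libraries were below those of MPC, yet the adjusted p was 0.148 (edgeR) with an interval of the log2 fold change from -0.55 to 0.02.

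Serpinb11 was the member with the steepest loss, from a low level. It had 19, 43 and 46 counts in MPC and 1, 1 and 0 in MPC-PTX. With 2 counts on one side, the ratio of MPC to MPC-PTX per scaled library was 57.1, with an exact binomial (Clopper-Pearson) 95% interval from 15.4 to 477.5 that covers counting error only. Its counts reached the filter in the MPC libraries alone, so that the adjusted p of 0.00102 (edgeR) depends on the line where it is high. Serpinb5 and Serpinb8 flank it among the tested genes of the chromosome, and neither passed the test.

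Slpi was the only member that rose. It had 30, 20 and 16 counts in MPC and 349, 232 and 190 in MPC-PTX, or 1.59, 1.03 and 0.769 CPM against 14.9, 10.5 and 11.3 CPM. Its lowest MPC-PTX value was several times its highest MPC value. Mean levels were 1.13 ± 0.422 CPM in MPC and 12.2 ± 2.37 in MPC-PTX (SD, n = 3 each), which is 10.9-fold higher on the fitted scale (log2 fold change 3.44, 95% interval 2.82 to 4.06, adjusted p = 0.000161, edgeR). The tested neighbours of Slpi on chromosome 2, from Pabpc1l to Dbndd2, had log2 fold changes between -0.64 and 0.15.

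Wfdc2, known as HE4 and used as a serum marker of ovarian cancer, lies on the same chromosome as Slpi and is the most abundant member. It was at 1558, 1233 and 1047 CPM in MPC and 1485, 1407 and 1420 CPM in MPC-PTX. The MPC values span those of MPC-PTX, with a log2 fold change of 0.17 and a 95% interval from -0.15 to 0.49. This value rested on single MPC libraries, as it was 0.33 without MPC replicate 1 (adjusted p = 0.0198, edgeR) and -0.0073 without MPC replicate 3. Of 21 further WAP domain genes in the table, only Wfikkn1 had enough counts to test, at 0.408 CPM in MPC and 0.726 CPM in MPC-PTX (adjusted p = 0.308, edgeR).

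The sequences before the start sites of the 4 called members are shown so that the neighbours Serpinb9 and Serpinb9b, which fell together, can be compared with each other and with the riser Slpi. They are the 250 bases before the start of each gene in RefSeq (GRCm38.p6), 5′ to 3′ on the strand of the gene. For Serpinb9, Serpinb11 and Slpi the bases after this start were found near the beginning of a GENCODE M21 transcript of the gene. For Serpinb9b they were not, so that its start is less certain. They span chr13:33004291-33004540 for Serpinb9, chr13:33027164-33027413 for Serpinb9b and chr1:107362064-107362313 for Serpinb11, all on the plus strand, and chr2:164356508-164356757 on the minus strand for Slpi. Capitals mark matches to any of 6 motifs searched on both strands, namely the core promoter motif TATAAA, the box motif CCAAT, the Sp1 motif GGGCGG, the AP-1 motif TGANTCA, the interferon response core GAAANNGAA and the STAT motif TTCNNNGAA.
Serpinb9: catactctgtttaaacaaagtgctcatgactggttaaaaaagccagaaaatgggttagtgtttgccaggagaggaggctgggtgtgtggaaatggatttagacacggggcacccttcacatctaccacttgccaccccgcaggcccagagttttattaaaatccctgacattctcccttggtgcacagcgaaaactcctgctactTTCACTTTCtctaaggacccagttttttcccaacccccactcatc
Serpinb9b: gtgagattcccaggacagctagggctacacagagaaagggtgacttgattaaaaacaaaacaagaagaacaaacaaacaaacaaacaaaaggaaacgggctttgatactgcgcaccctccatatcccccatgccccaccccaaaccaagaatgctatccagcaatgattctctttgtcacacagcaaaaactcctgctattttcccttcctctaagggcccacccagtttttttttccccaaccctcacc
Serpinb11: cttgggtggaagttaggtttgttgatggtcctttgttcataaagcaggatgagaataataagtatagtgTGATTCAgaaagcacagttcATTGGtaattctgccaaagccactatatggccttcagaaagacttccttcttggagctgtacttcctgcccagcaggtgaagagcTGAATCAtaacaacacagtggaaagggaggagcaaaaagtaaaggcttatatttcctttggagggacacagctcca
Slpi: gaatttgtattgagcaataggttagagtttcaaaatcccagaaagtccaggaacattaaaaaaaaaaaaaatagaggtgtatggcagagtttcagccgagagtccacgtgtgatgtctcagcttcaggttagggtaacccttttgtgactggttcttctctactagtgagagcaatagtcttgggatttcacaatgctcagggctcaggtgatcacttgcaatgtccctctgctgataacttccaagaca

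Serpinb9 and Serpinb9b aligned over 167 columns of these windows with 70.7% identical bases, ending 5 and 1 bases before the RefSeq starts. The Serpinb9 window held 1 match to GAAANNGAA, starting 45 bases before the start, a motif found in 7.13% of all 32851 RefSeq windows of this length. Serpinb9b held none of the 6 motifs, and Slpi held none. Serpinb11 held TGANTCA at 2 places, as TGATTCA and TGAATCA, and CCAAT once. Neither TGANTCA match has C or G at the open base. TGANTCA was found in 6.75% of all windows, CCAAT in 33.8%, GGGCGG in 32.7%, TATAAA in 12.4% and TTCNNNGAA in 7.02%. A match is a string of letters and not a shown binding site.

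Added up over the 62 serpin genes described here, reads took 1033, 1031 and 1091 CPM in the MPC libraries and 627.1, 645.5 and 652.7 CPM in MPC-PTX. This sum was lower in every MPC-PTX library, and 3 genes made up most of it. Serpinb6a, Serpinb9 and Serpinb6b together held 88.6% to 89.7% of these counts in MPC and 83.2% to 84.4% in MPC-PTX. The share of Serpinb9 was 28.9% to 30.5% in MPC and 19.3% to 20% in MPC-PTX. Serpinb6a held 31.9% to 37.2% in MPC and 40.2% to 41.5% in MPC-PTX. Serpinb5, whose own level did not pass the test, held 6.78% to 7.66% in MPC and 12.3% to 13.3% in MPC-PTX.

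**Figure D4:**
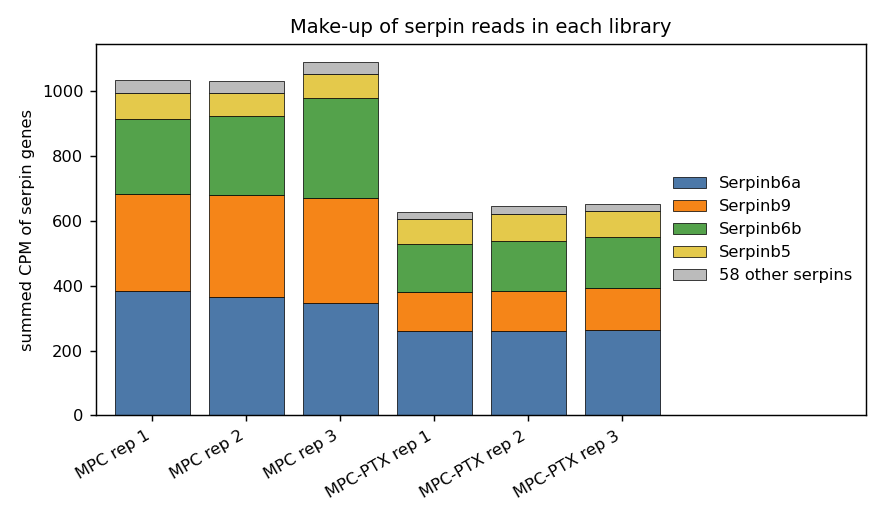
Summed CPM of the 62 serpin genes described here (vertical axis) in each library, stacked by gene for Serpinb6a, Serpinb9, Serpinb6b, Serpinb5 and the 58 others. The stacks reach 1031 to 1091 CPM in MPC and 627.1 to 652.7 CPM in MPC-PTX, and the Serpinb9 layer is thinner in MPC-PTX.

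Proteases that serpins restrain, and the genes around them, were counted from lists. Over all tested genes, 14.1% were higher and 15.6% lower by adjusted p, and 3.54% and 4.2% with both limits. Tissue factor and a thrombin receptor were among the genes that fell. Of 25 genes of the coagulation list 10 were tested, 1 was higher and 4 were lower with an adjusted p below 0.05, and 3 of the lower ones passed the limit on fold change. F3, the gene of tissue factor, which starts clotting, went from 228.9 ± 18.2 to 63.7 ± 1.96 CPM (SD, n = 3 each; log2 fold change -1.85, standard error 0.08, adjusted p = 1.49e-05, edgeR). The thrombin receptor gene F2r (log2 fold change -1.32) and Proc, the gene of the anticoagulant protein C (-4.84, and -5.53 without MPC-PTX replicate 3), also fell. Proc had 84, 92 and 79 counts in MPC and 1, 3 and 5 in MPC-PTX, and reached the filter through MPC alone. Thrombin itself (F2) had 0 counts in all libraries.

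Complement genes split in both directions. With both limits, 3 of 7 tested genes were higher and 3 lower. C1ra and C1s1, the proteases that C1 inhibitor blocks, rose by 1.14 and 1.49 on the log2 scale from low levels, and C3, the central complement component, rose from 162.5 ± 17.3 to 568.5 ± 12.98 CPM (SD, n = 3 each). Masp1, a protease of the lectin pathway, fell by 3.69, and the membrane inhibitor genes Cd55 and Cd59a fell by 2.06 and 1.14 on the log2 scale. Masp1 had 134, 150 and 142 counts in MPC and 15, 15 and 5 in MPC-PTX. Cd59a lost its call in 6 of 12 alternatives, with adjusted p up to 0.123 (edgeR), namely with library size alone, without MPC replicate 1 or 2 and without each MPC-PTX library in turn.

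Leukocyte proteases were nearly absent from these cultures. Gzmb, Ctsg and Elane, the genes of granzyme B, cathepsin G and leukocyte elastase, had 0 counts in every library, and 3 of 20 listed genes were tested. Gzme, a granzyme gene, had 49, 34 and 35 counts in MPC and 1, 2 and 2 in MPC-PTX, and Mcpt8, a basophil protease gene, had 86, 88 and 70 against 13, 8 and 5. Both fell (log2 fold changes -4.54 and -3.31), while Gzmm differed by less than the spread between replicates (-0.19, adjusted p = 0.583, edgeR). None of the 26 kallikrein genes reached the filter.

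Cysteine proteases of the lysosome are inhibited across classes by some clade B serpins. Of 8 tested genes 2 rose and 3 fell by adjusted p alone, and only Ctsh, the gene of cathepsin H, passed the limit on fold change (log2 fold change -1.18). Among 10 tested genes of receptors and partners that clear serpin-protease complexes, 1 was higher and 2 lower. Lrp1, an endocytic receptor that takes up serpin-protease complexes, fell from 61.6 ± 14.5 to 25.7 ± 2.42 CPM (SD, n = 3 each; log2 fold change -1.26, standard error 0.18, adjusted p = 0.00262, edgeR).

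Among inhibitors of other families, 1 gene passed both limits. Of 39 such genes 10 were tested, with 2 higher and 3 lower by adjusted p and a median log2 fold change of -0.14. Spint1 and Spint2, membrane inhibitors of epithelial serine proteases, fell by 0.28 and 0.30 on the log2 scale. Pi15, a secreted protein named as a trypsin inhibitor, was this gene, with 0, 1 and 5 counts in MPC and 37, 46 and 23 in MPC-PTX. Its log2 fold change was 3.98, and 5.66 without MPC replicate 3. Serpinh1 stayed at 2 to 6 counts, while the collagen folding list summed to 2820 to 2930 CPM in MPC and 3130 to 3170 in MPC-PTX. Most of this came from P4hb (mean 1058 and 1222 CPM) and Hspa5 (889.2 and 897.6 CPM). Fkbp10, P3h3, P3h4, Colgalt2, Lox and Adamts2 were too low to test, with means of at most 0.517 CPM in either line. Whether counting affected Serpinh1 was not tested. Of 19 tested genes of this list, 6 were higher and 3 lower by adjusted p, and Plod2 (log2 fold change 1.23) and Fkbp14 (2.00) passed both limits.

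**Figure D5:**
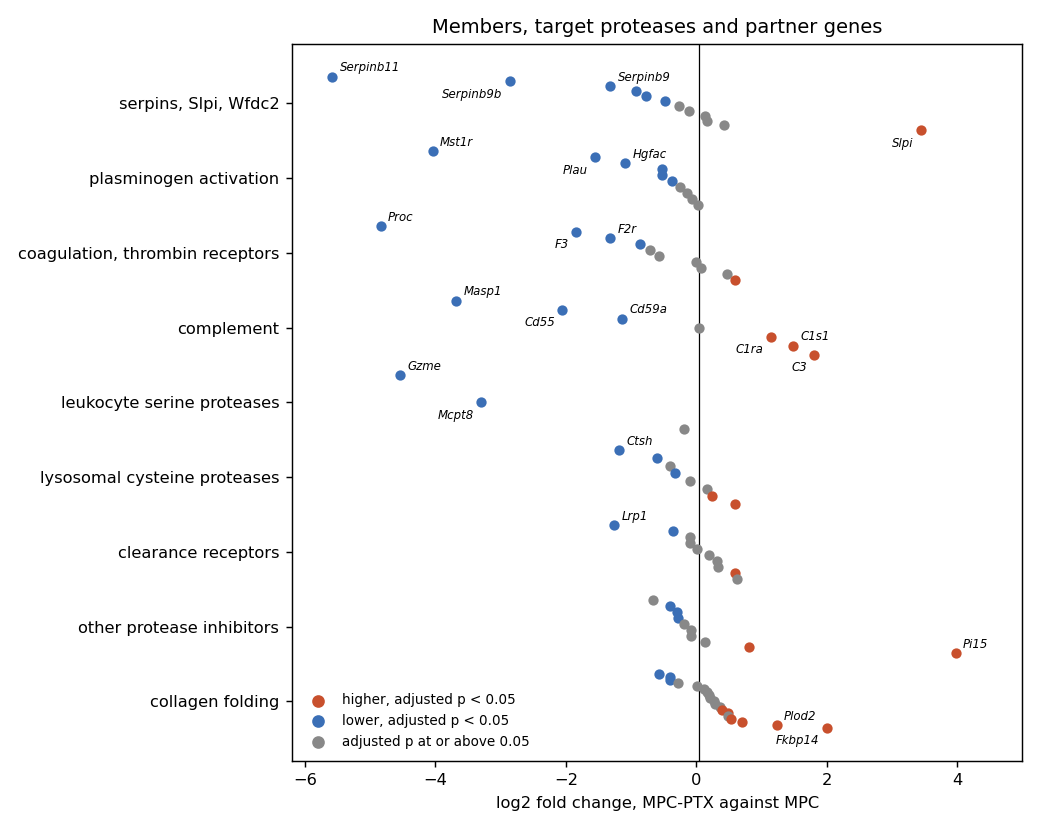
Log2 fold change in MPC-PTX against MPC (horizontal axis) of each tested gene, in 1 row per list, with genes of adjusted p below 0.05 in red (higher) or blue (lower), others in grey and names for those beyond a log2 fold change of 1. The vertical line is the median of all tested genes, 0.04. Serpinb9, Serpinb9b and Serpinb11 lie to the left, as do Plau, F3 and Lrp1 in their rows, and Slpi lies to the right.

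Leukocytes, liver and squamous epithelium are rich in these inhibitors, and their markers were therefore counted. The leukocyte list had a summed level of 11.4 to 13 CPM in MPC and 10.2 to 10.9 in MPC-PTX, almost all of it Cd68, with at most 6 counts of Ptprc and 6 of 16 genes at 0. Fibroblast markers summed to 10.3 to 11.2 and 9.01 to 10.8 CPM, and endothelial markers to 5.41 to 6.27 and 5.11 to 5.34 CPM. The hepatocyte list was at 166 to 205 and 549 to 575 CPM, mostly from Hp and Apob (Hp 102.3 and 559.1 CPM, Apob 76.3 and 1.28 CPM), while Alb and Ahsg had at most 1 count in a library. Squamous and basal markers moved in both directions, as 3 of 14 tested genes were higher past both limits and 6 lower, and their summed level went from 584 to 833 CPM in MPC to 325 to 329 in MPC-PTX. The largest log2 fold changes among them were 5.95 for Krt14, -5.21 for Ivl, -3.58 for Krt15, -3.54 for Sprr1a, -2.68 for Sprr3 and -1.99 for Krt4, where Sprr3 was at -2.03 without MPC replicate 1 and lost its call without each MPC-PTX library in turn (adjusted p up to 0.0667, edgeR). Of 12 tested simple epithelial markers 11 were lower by adjusted p and 4 of these passed both limits. Ctse, the gene of the gastric protease cathepsin E, fell from 274.7 ± 38.8 to 1.497 ± 0.351 CPM, and Anxa10, an annexin gene of gastric epithelium, fell from 128.8 ± 34.2 to 0.321 ± 0.127 CPM (SD, n = 3 each). The others were Gkn3 (log2 fold change -3.08) and Krt8 (-1.02, and -0.96 without MPC replicate 2). Whether these differences share a cause with those of Serpinb11, Serpinb9 or Slpi was not tested.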

How the data were processed

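Libraries were poly-A selected, and per the study's methods and the labels fastp 0.22.0 trimmed the reads and HISAT2 aligned them. The authors deposited raw counts per gene for each library, neither normalized nor pooled. The genome build, annotation, counting tool and use of strand are not given in the sources used here. The 6 sample tables equal the series table. From these counts, genes were filtered with filterByExpr (minimum count 10), scaled with TMM and tested with edgeR 4.0.16 (quasi-likelihood, robust; R 4.3.3), with Benjamini-Hochberg adjustment over all tested genes. The standard error is the log2 fold change divided by the root of F. A gene was called where the adjusted p was under 0.05 and the log2 fold change exceeded 1 in either direction. The study's own calls used DESeq with an unadjusted p and were not used here. With 3 libraries against 3, an exact permutation test cannot go below 0.1. Every tested member is given with values, and listed genes of other families are named where they passed both limits, at most 6 per list by size of fold change. Other listed genes in the text, such as Plat, Plaur, Gzmm and Spint1, were chosen after their values were seen. The scripts were tested on simulated data. Alternatives were DESeq2 1.42.0, other scaling and filters, a replicate block and each library left out. Members and lists were chosen with earlier results of these data known. Exon lengths came from GENCODE M21, matched for all 64 members. Gene order and upstream sequences came from RefSeq (GRCm38.p6), where Serpinb1a had no upstream sequence entry. 1 further gene that the naming rule takes in stayed in the fits and is not reported here.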

Additional observations from a re-analysis of the deposited data

How the results depend on the processing

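Slpi was called higher under each of the 14 alternatives, and Serpinb9 and Serpinb9b kept their calls under each of the 12 that refit the counts. The 3 members called lower became 6 with no limit on the fold change and 2 with at least 10 counts in every library, where Serpinb11 was not tested. Leaving out 1 library gave 3 to 4 members lower, and the added one was Serpinb1a, without MPC replicate 3. With 1 library left out, Serpini1 ranged from -0.3546 (without MPC-PTX replicate 2) to 0.027 on the log2 scale (without MPC-PTX replicate 1) and never passed the test. Wfdc2 ranged from -0.0073 (without MPC replicate 3) to 0.3342 (without MPC replicate 1), and passed the test only at the upper end. The cause was not tested. Serpinb1b passed the limit with library size alone (adjusted p = 0.0406, edgeR). Over all genes, the 417 higher calls became 242 with at least 10 counts in every library and 617 without MPC replicate 3. Fits with a replicate block gave 1 member higher and 3 lower, and changed no member's call. Deviations of same-numbered libraries correlated at 0.151, -0.023 and 0.173, so that the numbers were not taken to pair the samples. Members with at most 12 counts could not be compared at this depth.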
